A study of Mus musculus with 18 samples.

Results

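RNA of the RPE/choroid from mouse eyes injected with dexamethasone (Dex) was compared with RNA from eyes injected with balanced salt solution (BSS), 1 week postinjection. The comparison took the 3 arrays labelled Dex at day 7 and the 3 labelled BSS at day 7, which are 6 of the 18 arrays of the series. All arrays came from male C57BL/6J mice, 2 months old per the labels, that had received a single intravitreal injection. Dex was given in BSS, so BSS is the vehicle of both groups here. The 3 arrays of triamcinolone acetonide (TAA) at day 7 and the 3 arrays each of Dex and BSS at day 30 were used to set a difference after Dex beside those after TAA and at the later time. With the TAA arrays at day 30, they also entered the estimate of the spread behind each SE and p from limma, which was fitted to all 18 arrays. The labels call the 3 arrays of a group biological replicates, and a p-value sets a difference against the spread between replicates within groups.

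The RPE is the pigmented cell layer that lies against the photoreceptors, recycles their visual pigment and engulfs the tips of their outer segments. The choroid beneath it is a bed of vessels, fibroblasts, melanocytes and immune cells. Glucocorticoids such as Dex bind the glucocorticoid receptor, which then binds DNA and induces genes such as Tsc22d3, Fkbp5, Per1 and Sgk1, and represses many inflammatory genes.

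The values are centred log2 values: each probe set was set to a median of 0 over the 18 arrays, so that a value tells how an array stood against the others and holds no expression level. For that reason the labelled tissue could not be checked by the level of its markers. A difference of 1 is a fold of 2. Array medians lay between -0.0063 and 0.0154 on the Dex arrays and between 0.0011 and 0.0193 on the BSS arrays. The Affymetrix control probe sets at the 5′ end of Gapdh were set against those at its 3′ end. The 5′ minus 3′ differences of these centred values were -0.19, 0.12 and -0.06 on the Dex arrays, against -0.93, 0.09 and -0.52 on the BSS arrays. Those of Actb differed by -0.06, 0.26 and 0.35 on the Dex arrays, against -0.74, 0.23 and -0.58 on the BSS arrays. BSS replicates 1 and 3 thus had the weaker 5′ signal in both genes, and its part in the results was not tested.

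Short stretches of promoters are shown first, because the results below turn on glucocorticoid, clock and rod genes. They come from RefSeq, build GRCm38.p6, written 5′ to 3′ on the strand of the gene, and end before its transcription start. The window searched runs from 250 bases before to 50 bases after a start. Capitals mark a glucocorticoid response element (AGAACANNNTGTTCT) in Sgk1, an E-box (CACGTG, the site bound by clock activators) in Per1, and TAATCC, the core of sites bound by the photoreceptor factor CRX, in Sag and Cnga1. In Sag the motif lies on the opposite strand and reads GGATTA.
Sgk1, chr10:21993681-21993735, plus strand: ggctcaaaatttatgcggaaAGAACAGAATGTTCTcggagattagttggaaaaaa
Per1, chr11:69098763-69098808, plus strand: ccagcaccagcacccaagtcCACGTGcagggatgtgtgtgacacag
Sag, chr1:87803573-87803618, plus strand: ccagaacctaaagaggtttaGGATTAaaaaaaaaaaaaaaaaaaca
Cnga1, chr5:72642955-72643000, minus strand: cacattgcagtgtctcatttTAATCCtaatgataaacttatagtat

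Searched on both strands, TAATCC was in the windows of 8 of 21 rod genes with a promoter in the table (38.1%), against 8.14% of all 27018 genes. The 8 were Gngt1, Cnga1, Cngb1, Sag, Guca1a, Gucy2e, Crx and Abca4. CACGTG was in those of 2 of 12 core clock genes (Per1 and Cry1) and of 7 of 26 glucocorticoid-induced genes, against 8.09% of all genes. The full glucocorticoid element was in that of 1 of 26 glucocorticoid-induced genes, Sgk1, and of 3 genes in all. The motifs do not overlap each other in letters, and a match describes the sequence and is not a bound site.

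After Benjamini-Hochberg adjustment over all 45101 probe sets, limma called 0 probe sets between Dex and BSS (0%), and its smallest adjusted p was above 0.999. The unadjusted p was 0.05 or less in 1004 probe sets (2.23% of all, where 2255 are expected by chance), of which 380 had a higher (0.843%) and 624 a lower value (1.38%) after Dex. With a fold of 1.5 or more in addition, the thresholds of the study, 47 remained (0.104%), of which 13 stood higher (0.0288%) and 34 lower (0.0754%). Single arrays decided these counts: they were 120 higher and 84 lower without BSS replicate 2, 34 and 122 without Dex replicate 1, 20 and 20 without Dex replicate 2, 29 and 28 without Dex replicate 3, and 21 and 33 without BSS replicate 3. On 11 of the 13 and 21 of the 34 the Dex arrays lay entirely apart from the BSS arrays, which was the case for 4.18% (Dex above) and 4.77% (Dex below) of all probe sets. The 13 and 34 were chosen by p and fold on these same arrays, which favors such a gap, so these counts are not separate evidence. The differences described below are therefore differences between these arrays, none of them past the adjusted threshold. An exact two-sided permutation test of 3 arrays against 3 could not go below p = 0.1.

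Probe sets with a higher value after Dex at the study's thresholds included those of several matrix and cell surface proteins. Fn1, which encodes fibronectin, had values of 0.80, 0.80 and 0.48 on the Dex arrays, against 0.09, -0.20 and -0.09 on the BSS arrays. The difference was 0.76 (SE 0.27, 95% interval 0.17 to 1.34), and the other probe set of Fn1 differed by 0.25. Epha3, a receptor of ephrins that guides migrating cells and axons, stood at 0.51, 0.58 and 0.56 after Dex and at -0.16, -0.13 and 0.05 after BSS. Its Dex arrays differed by less than its BSS arrays, and the difference was 0.63 (SE 0.22, interval 0.17 to 1.09). The other 3 probe sets of Epha3 differed by only 0.05 to 0.16. Lrrc15, a membrane protein of fibroblasts, had values of 0.67, 1.29 and 0.70 after Dex, against 0.55, 0.01 and -0.19 after BSS. The groups did not overlap, but Dex replicate 1 lay close to BSS replicate 1, with a difference of 0.76 (SE 0.19) between the means and of 0.03 on its other probe set. C1qtnf3, a secreted protein of the C1q family, had values of 0.83, 2.60 and 1.52 after Dex and of 0.13, 0.54 and 0.32 after BSS. Its mean difference of 1.32 (SE 0.45) leaned on Dex replicate 2.

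Other probe sets on this side were less even. Crym, a protein that binds thyroid hormone, had values of 1.32, 0.92 and 0.01 on the Dex arrays, against -1.10, -0.01 and -1.02 on the BSS arrays. The highest BSS value nearly met the lowest Dex value. Pcdh17, a protocadherin of neurons, stood at 0.77, 0.48 and -0.03 after Dex and at -0.79, -0.12 and -0.49 after BSS, a difference of 0.87 (SE 0.26). Shisa9, a protein that joins AMPA receptors, differed by 0.95 (SE 0.42) on 1 of 3 probe sets, and Camk4, a calcium-dependent kinase, by 0.60 (SE 0.28) on 1 of 5. The smallest unadjusted p among higher probe sets with 1 gene symbol was that of Aen, a nuclease induced by p53. Aen had values of 0.03, 0.34 and 0.08 after Dex, against -0.35, -0.27 and -0.25 after BSS, a small difference of 0.44 (SE 0.09). Its other 3 probe sets differed by -0.15 to 0.08.

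On the negative side a probe set of Grik1 had a wide gap between the groups. Grik1 encodes a subunit of kainate receptors, which are ion channels opened by glutamate. Grik1 had values of -0.23, -0.47 and -0.47 on the Dex arrays, against 0.43, 0.51 and 0.69 on the BSS arrays. The difference was -0.94 (SE 0.28, interval -1.53 to -0.34). The other probe set of Grik1 did not share it, with values of 0.01, 0.20 and 0.05 after Dex and of 0.05, 0.34 and -0.09 after BSS. The SD over the 3 arrays was 0.14 in the Dex group and 0.13 in the BSS group for the first probe set.

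Ebf2, a transcription factor of fat and neuronal precursors, had values of -0.03, 0.01 and 0.07 after Dex, against 0.41, 0.93 and 0.52 after BSS. It differed by -0.60 (SE 0.15). Its other 2 probe sets differed by -0.45 and 0.02. Immune genes on this side included Ifi204, an interferon-inducible DNA sensor, its relative Ifi207, and Ms4a4c, a membrane protein of myeloid cells. Ifi204 stood at 0.56, -0.16 and -0.11 after Dex and at 1.18, 0.63 and 0.73 after BSS, a difference of -0.75 (SE 0.22). Ifi207 differed by -0.63 (SE 0.27), also without overlap. Ms4a4c stood at 0.35, -0.38 and 0.02 after Dex and at 1.15, 0.70 and 0.64 after BSS, and its other probe set had a difference of -0.49 (SE 0.16) beside -0.83 (SE 0.31) for the first. Sfrp4, a secreted inhibitor of Wnt signaling, had 0.06, 0.24 and 0.14 after Dex and 0.60, 1.58 and 0.29 after BSS. Most of its difference of -0.68 (SE 0.28) came from BSS replicate 2. Hbb-b2, a beta globin of red blood cells, differed by -0.62 (SE 0.22) on 1 probe set and by -0.04 on the other.

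**Figure D1:**
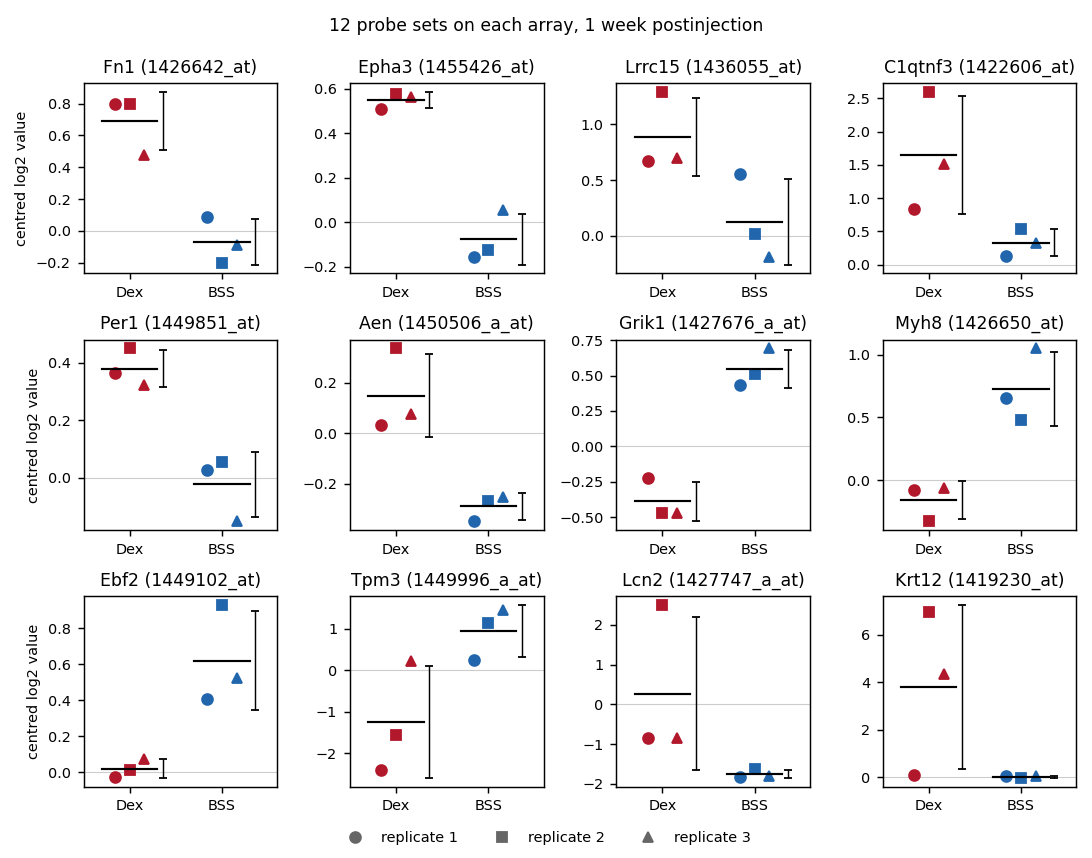
Centred log2 values of 12 probe sets on the 3 Dex arrays (red, left) and the 3 BSS arrays (blue, right) at 1 week, each panel with its own vertical axis. Symbols mark the replicate, horizontal bars the mean and vertical bars the SD. Fn1, Epha3, Per1, Grik1 and Myh8 separate evenly, whereas Lcn2 has 1 high Dex array (2.49) and Krt12 has 2 (6.95 and 4.33).

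Among probe sets with the smallest unadjusted p, most differed by less than a fold of 1.5. Fank1, a gene of testis germ cells, had values on 1 of 4 probe sets of -0.15, -0.32 and -0.21 after Dex, against 0.12, 0.08 and 0.23 after BSS. Otog, a matrix protein of the inner ear, had values of -0.17, -0.33 and -0.48 after Dex, against 0.08, 0.39 and 0.12 after BSS, a difference of -0.53 (SE 0.11). Pde4a, which degrades cyclic AMP, differed by -0.43 (SE 0.10), Ctsg, a protease of neutrophils and mast cells, by -0.43 (SE 0.12), and Timm50, a part of the mitochondrial import machinery, by -0.42 (SE 0.11). The tyrosine kinase receptor Ephb4, which marks veins, differed by 0.32 (SE 0.08).

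Of the 36 gene lists, that of the rods had the largest median difference after Dex. All 28 measured members of the rod photoreceptor list had a difference above 0, with a median of 1.55, beside a median of 0.0022 and 50.8% above 0 over all 18194 genes. On 19 of the 28 the Dex arrays lay above all BSS arrays, against 4.4% of all genes (4.84% lay below). None of their 41 probe sets had an unadjusted p of 0.05 or less in limma. Several members were picked by the study on these same arrays, so the count is not independent evidence of the direction. A gene's value here and in the groups below is the mean of its probe sets.

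Neurod1, a transcription factor of photoreceptors, had the largest difference of the list (2.97), with 2.5, 2.59 and -0.64 on the Dex arrays, against -2.00, -1.34 and -1.13 on the BSS arrays. Members of the phototransduction cascade followed. Gnat1, the rod transducin that passes the signal on from the visual pigment, stood at 1.72, 2.03 and -0.40 on the Dex arrays, against -2.65, -1.35 and -1.09 on the BSS arrays. Pde6b, the phosphodiesterase that transducin activates, stood at 1.85, 1.90 and -0.37 after Dex and at -1.72, -1.2 and -0.59 after BSS. Cnga1, the channel closed by light, stood at 1.98, 2.51 and -0.23 after Dex and at -2.34, -1.13 and -0.85 after BSS. In each of them Dex replicates 1 and 2 were high, and replicate 3 lay closer to the nearest BSS array than to either other Dex array.

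Proteins that control the shutoff of the cascade followed the same order. Sag, the rod arrestin, stood at 2.30, 2.77 and -0.34 after Dex, against -2.03, -1.22 and -0.74 after BSS, and Rcvrn, the calcium sensor recoverin, at 2.15, 2.44 and -0.46 after Dex, against -2.03, -1.51 and -0.70 after BSS. The transcription factors of the rod lineage were alike: Nrl had 1.80, 2.06 and -0.45 after Dex and -1.53, -1.21 and -0.76 after BSS, and Crx had 1.27, 1.78 and -0.30 after Dex and -0.77, -0.35 and -0.38 after BSS. Members with differences under 0.25 were Gnb1, Gucy2e, Rgs9, Grk1, Abca4 and Slc24a1.

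The spread of these genes over all groups was wide, and this sets their errors. Sag differed by 2.91 with an SE of 1.78 when the spread was pooled over the 18 arrays, and an SE of 0.74 on the 6 arrays alone. The mean of the rod list was 1.08, 1.31 and -0.25 on the Dex arrays, against -0.99, -0.69 and -0.47 on the BSS arrays. In the other groups it ran from -1.12 to 1.65 on the TAA arrays at 1 week, from -1.04 to 2.78 on the Dex arrays at 1 month and from -0.41 to 3.02 on the BSS arrays at 1 month. Replicates within those groups thus differed by more than the means of Dex and BSS did at 1 week. The list median was 2.09 without Dex replicate 3, and between 1.23 and 1.72 without any other single array. Fewer cells of a type and less RNA per cell cannot be told apart in such bulk samples.

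Genes of synaptic vesicles and GABA signaling stood higher on the same Dex arrays, with smaller list medians than that of the rods. These lists describe a neuronal process and do not tell rods from other retinal neurons. Of 22 synaptic vesicle genes, 19 had a difference above 0 (median 0.28, and 0.17 without Dex replicate 2). On 7 the groups did not overlap, all with Dex above (4.4% of all genes). Snap25, a SNARE protein that drives vesicle fusion, stood at 2.59, 2.95 and -0.98 on the Dex arrays, against -2.34, -2.35 and -1.76 on the BSS arrays. Its difference of 3.67 (SE 1.98, interval -0.54 to 7.88) was the largest of the probe sets picked by the study. A second Snap25 probe set overlapped, with 1.95, 0.40 and -0.37 after Dex and -0.01, -0.23 and -0.17 after BSS. The complexins of ribbon synapses, Cplx3 and Cplx4, differed by 1.87 and 1.97, whereas Bsn, Stx1a, Sv2b and Syn2 differed by -0.04 to 0.03. Gad1, which makes GABA, stood at 1.55, 1.71 and -0.44 after Dex, against -0.51, -0.65 and -0.57 after BSS. Of the GABA receptor subunits, the Gabrb2 probe set picked by the study, 1 of 5, had 0.21, 0.93 and 0.06 after Dex and -0.87, -1.01 and -0.77 after BSS. Of the 20 GABA signaling genes, 15 had a difference above 0 (median 0.08). On 4 of them the Dex arrays lay above all BSS arrays (4.4% of all genes), and on 0 below. The only probe set of the list with an unadjusted p of 0.05 or less in limma was lower, 1 of 4 of Gabbr1, a subunit of the metabotropic GABA receptor. It stood at -0.18, -0.12 and -0.44 after Dex, against 0.02, -0.07 and 0.02 after BSS, a difference of -0.24 (SE 0.10).

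The list medians of other retinal cells were small and moved with single arrays. That of 9 cone genes was 0.18, and 0.34 without Dex replicate 3. That of 8 bipolar cell genes was 0.14, 0.02 without Dex replicate 2 and 0.31 without Dex replicate 3. That of 17 genes of amacrine, horizontal and ganglion cells was 0.14, and 0.25 without BSS replicate 1. That of 10 genes of Muller glia was 0.02, -0.09 without Dex replicate 1 and -0.08 without BSS replicate 3. The mean difference was 0.44 for the cone, 0.47 for the bipolar and 0.40 for the amacrine, horizontal and ganglion cell genes. It was 0.01 for those of Muller glia. The Dex arrays lay above all BSS arrays on 2 cone, 3 bipolar and 5 amacrine, horizontal and ganglion cell genes (4.4% of all genes). On 0 genes of these lists did they lie below.

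**Figure D2:**
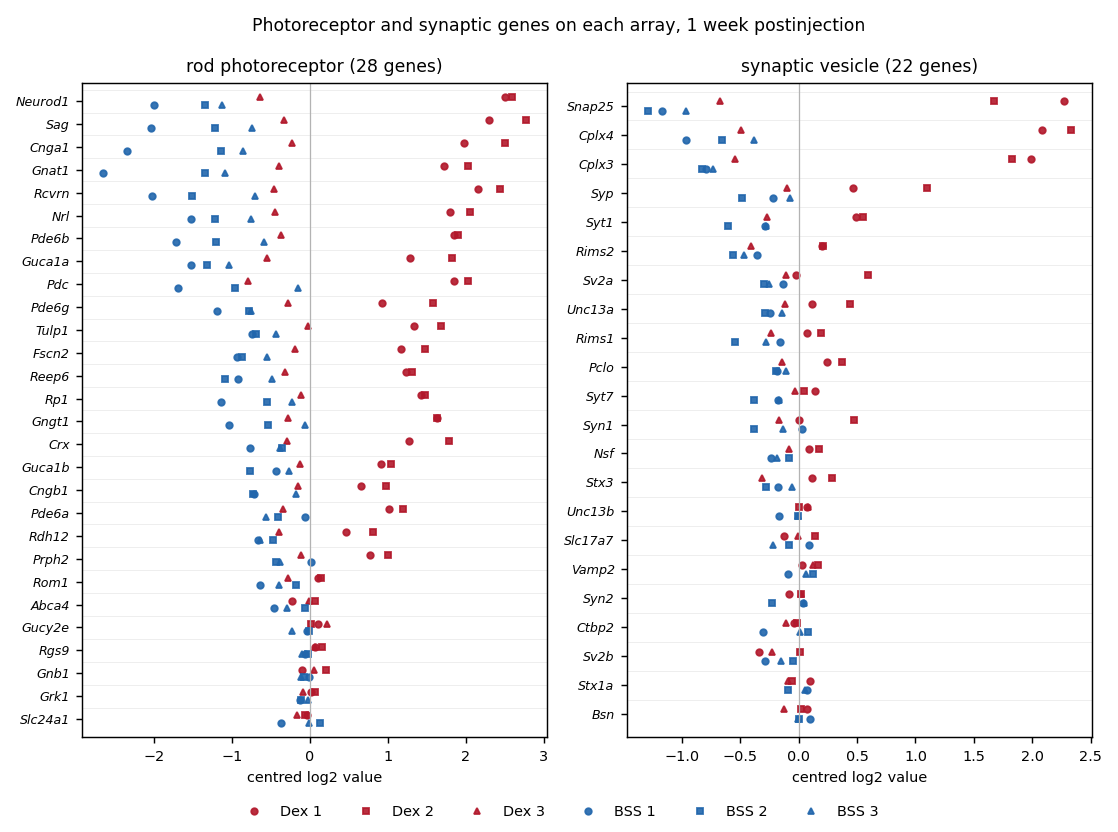
Centred log2 values of 28 rod photoreceptor genes and 22 synaptic vesicle genes on each array, ordered by the difference of Dex from BSS. Each gene has its Dex arrays (red) above its BSS arrays (blue), and symbols mark the replicate. Dex 1 and 2 stand to the right in most rod genes, and Dex 3 lies close to the BSS arrays.

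Counted array by array, Dex replicate 1 stood above every BSS array in 25 of the 28 rod genes, replicate 2 in 27 and replicate 3 in 21, against 16.7%, 26% and 26.9% of all genes. With the rod list mean as a covariate in limma, the difference was 1.16 (SE 0.30) for the first Snap25 probe set, a gene outside that list, and -0.81 (SE 0.49) for the second. Fn1 had 0.60 (SE 0.26) and the first Grik1 probe set -0.77 (SE 0.26) in the same fit. Of the 40 probe sets that the study listed for Dex at 1 week, 39 carry 1 gene symbol here, 30 of them higher and 9 lower. On all 39 the groups did not overlap, and all 39 had a p of 0.05 or less in the methods' t-test, which chose them. In limma over 18 arrays 10 of the 39 did, on the 6 arrays alone 39 did, and 0 passed after adjustment. Over all probe sets, that t-test gave 0 after adjustment and, at the study's thresholds, 76 higher (0.169%) and 12 lower (0.0266%).

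Genes of glutamate signaling leaned neither way. Of 26 glutamate signaling genes, 15 had a difference above 0, with a median of 0.02, and on 3 the Dex arrays lay above (4.4% of all genes) and on 2 below the BSS arrays (4.84%). The median was -0.00017 without BSS replicate 3. Grin2c, a subunit of NMDA receptors, had -0.01, -0.31 and -0.04 after Dex, against 0.36, 0.18 and 0.20 after BSS, a difference of -0.37 (SE 0.09). Grin3a had 1 of 3 probe sets with a difference of -0.26 (SE 0.11), and Grm2, a metabotropic receptor, one of 0.32 (SE 0.13). Slc1a3, the glutamate transporter of glia, and Slc1a7, that of photoreceptors and bipolar cells, differed by -0.09 and 0.46, and the groups were apart for Slc1a7.

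Genes of the extracellular matrix had higher values after Dex in 28 of 30 members, with a median of 0.24. On 7 of the 30, Fn1, Col6a1, Col6a3, Fbln2, Sparc, Mgp and Loxl1, the Dex arrays lay above all BSS arrays, as they did for 4.4% of all genes. Of 63 probe sets, 5 had an unadjusted p of 0.05 or less in limma, all higher, beside 0.843% of all probe sets. Besides Fn1 they were those of the fibrillar collagens Col1a1 and Col1a2, of fibulin 2 and of the matrix Gla protein. On 1 of 3 probe sets Col1a2 stood at 0.87, 0.89 and 0.38 after Dex, against 0.23, 0.20 and 0.08 after BSS. The difference was 0.54 (SE 0.24), and the other 2 probe sets differed by -0.10 and 0.28. On 1 of 2 probe sets Col1a1 stood at 0.83, 0.93 and 0.15 after Dex and at 0.20, 0.08 and -0.10 after BSS, so that Dex replicate 3 fell within the BSS range. Mgp, an inhibitor of calcification, stood at 0.12, 0.08 and 0.14 after Dex and at -0.39, -0.28 and -0.04 after BSS.

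Angptl7, a secreted protein of the trabecular meshwork and cornea that glucocorticoids raise in those cells, stood at 1.07, 0.83 and 0.94 after Dex, against 0.26, 0.92 and 0.03 after BSS. BSS replicate 2 overlapped the Dex arrays. The members below 0 were Kera, a proteoglycan of the cornea, with -0.45, 1.03 and -0.03 after Dex and 1.34, 1.69 and 0.18 after BSS, and Dpt, dermatopontin of connective tissue, with a difference of -0.28. The list mean was 0.28, 0.38 and 0.17 on the Dex arrays and 0.12, 0.02 and 0.07 on the BSS arrays. Its median lay between 0.18 and 0.28 without any single array.

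Endothelial genes had higher values after Dex in 12 of 12 members (median 0.31). The groups did not overlap on 1 alone, Plvap of fenestrated vessels, with Dex above (4.4% of all genes). The median was 0.19 without BSS replicate 1 and 0.43 without Dex replicate 2. The list mean was 0.39, 0.00 and 0.24 on the Dex arrays, against -0.32, 0.01 and 0.02 on the BSS arrays. BSS replicate 1 is an array with weak 5′ signal, whose part here was not tested. Vwf, the clotting factor stored in endothelium, stood at 0.58, 0.19 and 0.31 after Dex and at -0.40, 0.26 and -0.41 after BSS. Dex replicate 1 lay above every BSS array in 11 of the 12, replicate 2 in 2 and replicate 3 in 10. On 1 of 4 probe sets Flt1, a VEGF receptor, had 0.53, 0.25 and 0.23 after Dex, against -0.21, -0.06 and 0.00 after BSS, a difference of 0.43 (SE 0.19). Nrp1, a coreceptor of VEGF, differed on 1 of 4 probe sets by 0.40 (SE 0.16). Genes of pericytes and smooth muscle had a median of -0.02, which was 0.14 without BSS replicate 3.

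Genes of skeletal muscle had lower values after Dex in 28 of 39 members, with a median of -0.12. Of their 71 probe sets, 11 had an unadjusted p of 0.05 or less in limma, all lower (1.38% of all probe sets), and 10 of them met the fold of 1.5 too (0.0754% of all). They include 2 of the 5 probe sets of Tpm3, tropomyosin of slow fibers. On 1 of these Tpm3 stood at -2.41, -1.57 and 0.23 on the Dex arrays, against 0.24, 1.14 and 1.46 on the BSS arrays. The difference was -2.20 (SE 0.58, interval -3.43 to -0.96), and Dex replicate 3 (0.23) all but met BSS replicate 1 (0.24).

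The genes below were singled out after their values were seen, so they are a description of those genes alone. Myh3, the embryonic myosin, stood at -2.71, -0.87 and 0.37 after Dex, against 0.03, 0.55 and 1.2 after BSS, and Tnnc1, the slow troponin C, at -2.58, -0.95 and 0.21 after Dex, against 0.12, 0.44 and 0.41 after BSS. Tnnt1 and Tnni1, the other slow troponins, differed by -1.01 and -1.21, Myl2, a slow myosin light chain, by -1.02, and Myh7, the slow myosin, by -0.88. Myh8, the perinatal myosin, differed more evenly, with -0.08, -0.33 and -0.06 after Dex and 0.65, 0.48 and 1.05 after BSS. Of the other members, 11 had a difference above 0. Dex replicate 2 lay below every BSS array in 29 of the 39 genes, replicate 1 in 15 and replicate 3 in 7, against 21.6%, 26.7% and 21.7% of all genes. Replicate 1 lay above every BSS array in 12 of them. The median was -0.0037 without Dex replicate 2 and -0.06 without BSS replicate 2. Per the methods, muscle on the outside of the eye was cleaned off, and how much of it remained was not measured.

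**Figure D3:**
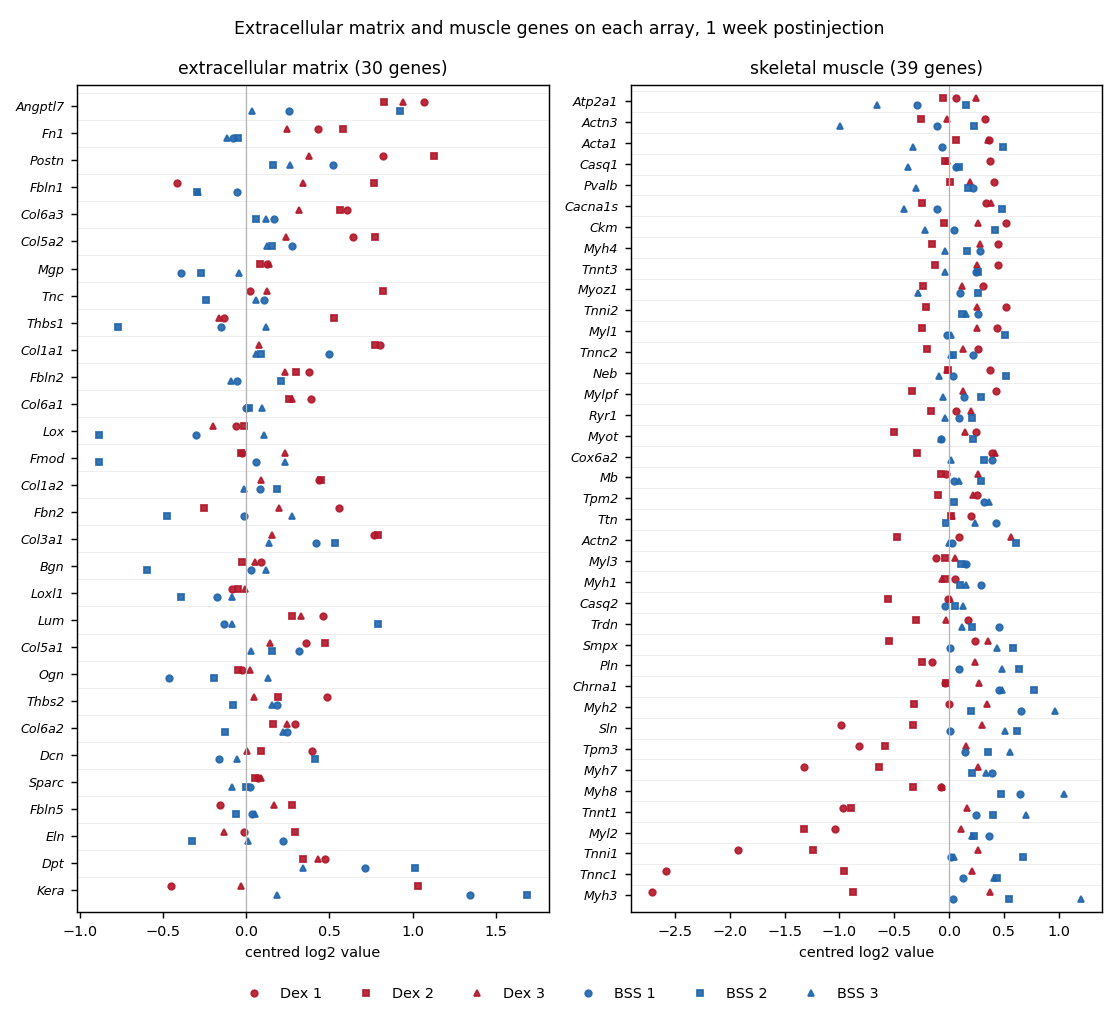
Centred log2 values of 30 extracellular matrix genes and 39 skeletal muscle genes on each array, ordered by the difference of Dex from BSS. Each gene has its Dex arrays (red) above its BSS arrays (blue), with symbols for the replicate. Matrix genes lie mostly to the right on the Dex arrays, and Myh3, Tnnc1, Tnni1 and Myl2 lie far to the left on Dex 1 and 2 but not on Dex 3.

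Genes known to be induced by glucocorticoids stood slightly above BSS 1 week after Dex. Their list mean was -0.03, 0.21 and 0.09 on the Dex arrays, against -0.09, -0.04 and -0.17 on the BSS arrays. Of 30 members, 23 had a difference above 0 (50.8% of all genes), with a median of 0.05. On 5 the groups did not overlap, all with Dex above (4.4% of all genes). Of 64 probe sets, 3 had an unadjusted p of 0.05 or less in limma, all higher (0.843% of all probe sets): Per1, Txnip and Arrdc2. Per1, a repressor in the circadian clock, stood at 0.37, 0.45 and 0.32 on the Dex arrays, against 0.03, 0.06 and -0.15 on the BSS arrays, a difference of 0.40 (SE 0.18, interval 0.03 to 0.78). Arrdc2, an arrestin-like protein, stood at 0.26, -0.07 and 0.11 after Dex and at -0.35, -0.23 and -0.46 after BSS. Txnip, which restrains glucose uptake, stood at 0.16, 0.25 and 0.45 after Dex and at -0.09, 0.12 and -0.26 after BSS.

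The classic targets differed little. Tsc22d3, which encodes the anti-inflammatory protein GILZ, had 0.25, 0.25 and 0.23 after Dex, against 0.18, 0.06 and 0.17 after BSS, apart but by only 0.11. Fkbp5, a chaperone that dampens the receptor, had -0.04, -0.02 and 0.07 after Dex and 0.07, -0.17 and 0.19 after BSS. Sgk1, the kinase whose promoter holds the element shown above, had -0.02, 0.04 and -0.09 after Dex and -0.20, 0.14 and -0.14 after BSS. Zbtb16 and Klf9 differed by 0.09 and 0.05. The receptor gene Nr3c1 differed by -0.01. Of the 8 genes of the receptor and its access, the chaperones Hsp90aa1 and Fkbp4 lay lower on all Dex arrays (4.84% of all genes). Their differences were -0.14 and -0.08.

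The largest differences in the list belonged to Lcn2 and Serpina3n, both acute phase genes. Lcn2, which binds bacterial siderophores, stood at -0.85, 2.49 and -0.83 after Dex, against -1.81, -1.63 and -1.81 after BSS. All Dex arrays lay above all BSS arrays, but replicate 2 made most of the difference of 2.02 (SE 1.62, interval -1.42 to 5.46). Serpina3n, a protease inhibitor, stood at -0.02, 1.77 and 0.41 after Dex and at 0.02, -0.80 and -0.55 after BSS, so that the groups overlapped. Of 15 acute phase genes, 11 had a difference above 0 (median 0.08, and 0.14 without BSS replicate 1), and 3 had Dex above all BSS arrays, Lcn2, Cp and Chil1 (4.4% of all genes). Cp, the copper carrier ceruloplasmin, had 0.08, 0.73 and 0.04 after Dex and -0.47, -0.37 and -0.27 after BSS as the mean of 8 probe sets.

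Core clock genes had a difference above 0 in 12 of 14 members, and on 4, Per1, Cry2, Rora and Csnk1d, the Dex arrays lay above the BSS arrays (4.4% of all genes). The median was 0.09, 0.04 without BSS replicate 1 and 0.18 without BSS replicate 2. Cry2, a clock repressor, stood at 0.11, 0.10 and 0.14 after Dex and at -0.12, 0.06 and -0.09 after BSS. Nr1d1, which represses Arntl, had 0.50, 0.33 and 0.84 after Dex, against 0.00, 0.64 and 0.08 after BSS. Arntl itself overlapped, with -0.53, -0.43 and -0.77 after Dex and -0.84, -0.66 and -0.87 after BSS. Among 8 clock output genes, Ciart alone had groups apart, with Dex above (4.4% of all genes). It stood at 0.41, 0.49 and 0.47 after Dex and at 0.14, 0.29 and 0.27 after BSS. Ahrr, a repressor of the aryl hydrocarbon receptor measured by PCR in the study, had 0.52, 0.94 and 0.17 after Dex and -0.18, -0.35 and -0.17 after BSS, a difference of 0.77 (SE 0.83), which was -0.24 with the rod list mean as a covariate.

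**Figure D4:**
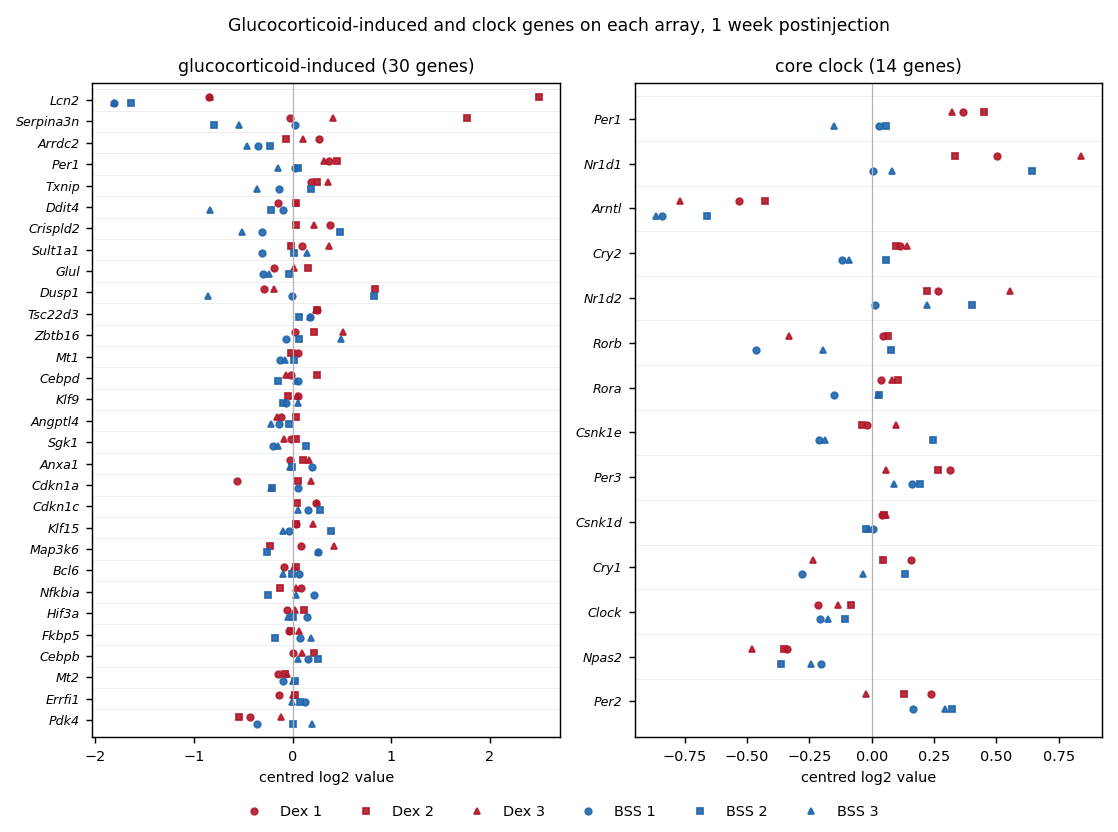
Centred log2 values of 30 glucocorticoid-induced genes and 14 core clock genes on each array, ordered by the difference of Dex from BSS. Each gene has its Dex arrays (red) above its BSS arrays (blue), with symbols for the replicate. Most genes lie within 0.5 of 0 in both groups, and Lcn2 and Serpina3n reach 2.49 and 1.77 on Dex 2.

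Genes of the RPE itself differed little. Of 16 members 7 had a difference above 0, with a median of -0.02 and a range of -0.10 to 0.17, and on 0 of them the groups were apart. Rpe65, the isomerase of the visual cycle, had 0.01, -0.01 and -0.03 after Dex and -0.06, 0.16 and -0.01 after BSS. Best1, a chloride channel, had 0.03, -0.01 and -0.04 after Dex and -0.15, 0.24 and 0.01 after BSS. BSS replicates 1 and 2 stood at opposite ends, so that the median was 0.07 without BSS replicate 2. The list mean was -0.07, 0.03 and 0.03 on the Dex arrays and -0.16, 0.17 and -0.04 on the BSS arrays. Genes of melanosomes had a median of 0.09, of outer segment phagocytosis 0.07, of autophagy 0.03, of tight junctions 0.06 and of ion and water transport 0.07. Single arrays moved them: without 1 array they ran from 0.016 to 0.186 for melanosomes, 0.016 to 0.115 for phagocytosis, 0.00013 to 0.059 for autophagy and 0.015 to 0.131 for transport, lowest without BSS replicate 1, BSS replicate 3, Dex replicate 3 and Dex replicate 2 in that order. The median of tight junction genes was -0.02 without Dex replicate 2 and -0.0046 without Dex replicate 3. Among transport genes Car2, a carbonic anhydrase also found in retina, stood at 0.84, 1.15 and -0.55 after Dex and at -0.12, -0.50 and -0.71 after BSS.

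Inflammatory lists had small medians, and most turned sign when 1 array was left out. Of 19 cytokine and adhesion genes 10 had a difference above 0 (median 0.01), and of 19 macrophage and microglia genes 9 did (median -0.01). A difference above 0 was found in 10 of 12 complement genes (median 0.07), 5 of 6 MHC class II genes (median 0.12) and 7 of 13 interferon response genes (median 0.04), beside 50.8% of all genes. The Dex arrays lay below all BSS arrays on 2 interferon, 1 MHC class II, 3 macrophage and 1 cytokine gene (4.84% of all genes). They lay above on 2 macrophage genes and 1 complement gene (4.4% of all genes). Each of these medians but that of complement, which was 0.16 without BSS replicate 2, turned sign without at least 1 array, to -0.14 for the interferon and -0.02 for the MHC class II genes without Dex replicate 3, and to 0.05 for the macrophage genes and -0.06 for the cytokine genes without Dex replicate 2. Their list means overlapped between the groups: that of the interferon genes was 0.07, 0.02 and 0.45 on the Dex arrays and 0.31, 0.27 and 0.14 on the BSS arrays.

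Markers of tissues next to the RPE/choroid varied among arrays of both groups. The surface epithelium mean was -1.52, 1.22 and 1.43 on the Dex arrays and 1.25, -0.89 and 0.24 on the BSS arrays. Krt15, a keratin of basal epithelial cells, ranged from -5.31 to 1.65 after Dex and from -2.41 to 1.84 after BSS. Krt12, the keratin of the corneal epithelium, did not go with it. On 1 of its 2 probe sets it stood at 0.11, 6.95 and 4.33 on the Dex arrays, against 0.06, -0.04 and 0.04 on the BSS arrays. The difference of 3.78 had an SE of 2.41 (interval -1.34 to 8.91). The other probe set of Krt12 was alike, with a difference of 4.02 (SE 2.25, interval -0.76 to 8.80). This gene was singled out after its values were seen. The lens mean was 0.89, -0.52 and 0.00 on the Dex arrays and 0.41, -0.02 and 0.35 on the BSS arrays, and the adipocyte mean 1.2, 0.09 and 0.09 on the Dex arrays and 0.64, 1.06 and -0.06 on the BSS arrays.

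**Figure D5:**
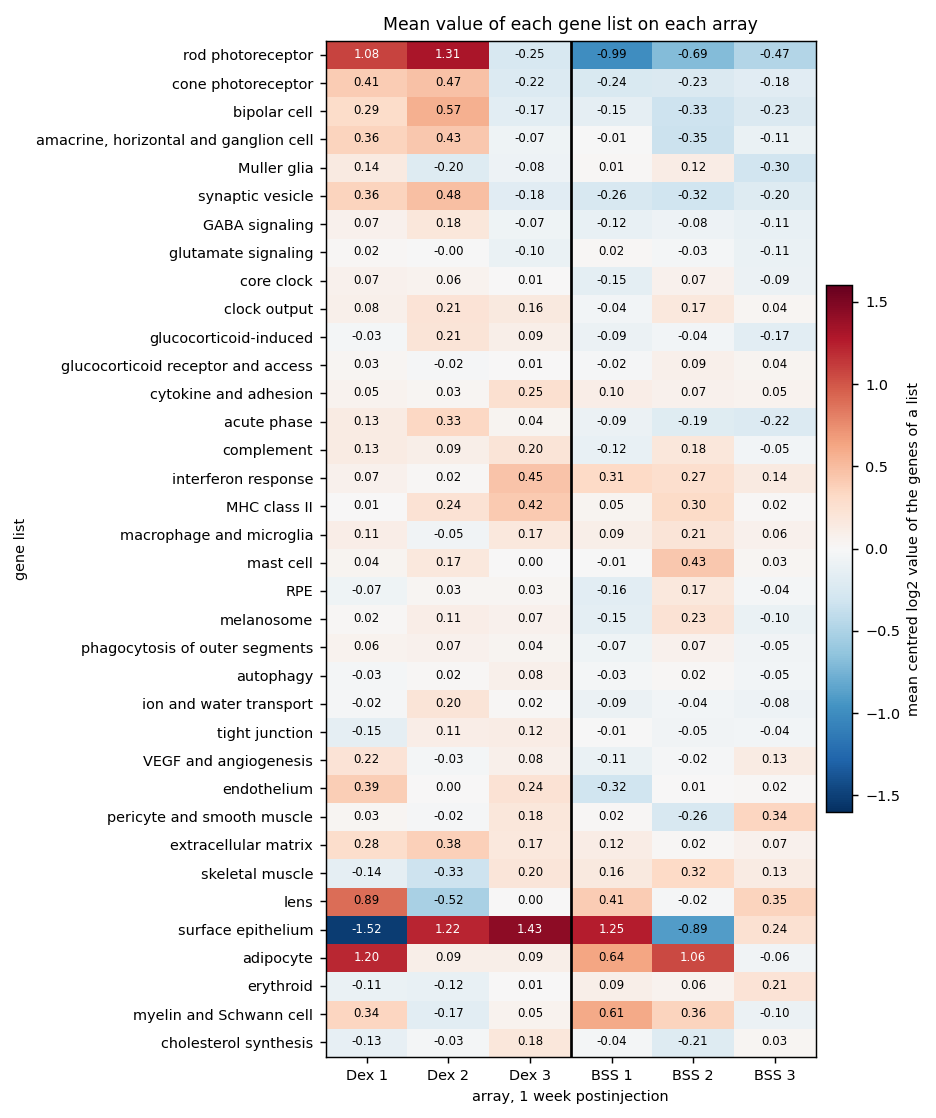
Mean centred log2 value of each of 36 gene lists (rows) on the 3 Dex arrays (left of the line) and the 3 BSS arrays (right) at 1 week, printed in each cell and colored from blue (low) to red (high). The rod list stands at 1.08 and 1.31 on Dex 1 and 2 and at -0.25 on Dex 3, and the surface epithelium list spans both signs in each group.

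TAA is a glucocorticoid as well, and its arrays at 1 week allow a direct comparison of Dex with TAA. limma gave 0 probe sets after adjustment for Dex against TAA (0%). Its smallest adjusted p was 0.223. The unadjusted p was at most 0.05 in 1217 of 45101 probe sets, where 2255 are expected by chance. Fn1 stood higher after Dex than after TAA by 0.83 (SE 0.27), Lrrc15 by 0.70 (SE 0.19), C1qtnf3 by 1.34 (SE 0.45), Epha3 by 0.56 (SE 0.22) and Col1a1 by 0.97 (SE 0.26). These probe sets were named for high values on the same Dex arrays, which favors such a difference. The median over the matrix list was 0.25 for Dex minus TAA. Myh8 differed by 0.05 (SE 0.26) and Ifi204 by 0.11 (SE 0.22) between the steroids. Both comparisons with BSS share its 3 arrays. Against BSS, Myh8 differed by -0.88 after Dex and by -0.93 after TAA, Ifi204 by -0.75 after Dex and by -0.86 after TAA, and Lcn2 by 2.02 after Dex and by 4.27 after TAA. Per1 differed from BSS by 0.40 after Dex and by 0.70 after TAA. The median over the glucocorticoid-induced list was 0.05 after Dex and 0.20 after TAA. That over the rod list was 1.55 after Dex and 0.74 after TAA, and that over the skeletal muscle list -0.12 after Dex and -0.58 after TAA. The doses of the steroids differed, so that steroid and dose cannot be told apart.

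The effect of Dex at 1 week was also set against that at 1 month, when each was measured against BSS arrays of the same day. limma's test of the difference gave 0 probe sets after adjustment (0%), with a smallest adjusted p above 0.999. Its unadjusted p was at most 0.05 in 1339 of 45101 probe sets, where 2255 are expected by chance. For Pcdh17 the effect at 1 week exceeded that at 1 month by 1.59 (SE 0.37), with 0.87 at 1 week and -0.72 at 1 month. Aen had 0.44 at 1 week and -0.21 at 1 month, and Ebf2 -0.60 at 1 week and 0.25 at 1 month. Pcdh17, Aen and Ebf2 were named for their difference at 1 week, which favors a larger effect at that time. The first Grik1 probe set had -0.94 at 1 week and -0.87 at 1 month, a difference of -0.07 (95% interval -0.91 to 0.78). Fn1 had 0.76 at 1 week and 0.58 at 1 month. The rod list had medians of 1.55 at 1 week and of -1.25 at 1 month. At 1 month its mean was -1.04, 0.06 and 2.78 on the Dex arrays and 3.02, -0.41 and 2.86 on the BSS arrays, so that the groups overlapped. For Sag the difference between the times was 4.49 (SE 2.52, interval -0.86 to 9.85).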

How the data were processed

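RPE/choroid RNA was hybridized to Affymetrix Mouse Genome arrays, 3 per group. Per the methods, the authors ran RMA in GeneSpring and subtracted each probe set's median over all arrays; the processing notes also name RMA. The deposited values are centred log2 values of 45101 probe sets on 18 arrays, with a median of 0 per probe set to within 5e-07. The study's filter on weak signals needs a level and was not repeated. The platform annotation gave 34958 probe sets 1 gene symbol, 932 several and 9211 none, so that those are unnamed here; 34754 matched a RefSeq table (GRCm38.p6) by gene identifier, which changed 0 symbols. Probe sets with several symbols name no gene in the text. Some genes are not reported here.

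limma 3.58.1 in R 4.3.3 was fitted to all 18 arrays, with a mean for each group (12 residual and 3.29 prior degrees of freedom), two-sided, with Benjamini-Hochberg adjustment over all probe sets. SE is that of a difference from this fit, and intervals are 95%. In simulated data for the comparison of Dex with BSS, with 45101 probe sets, it recovered 40.3% of changes of a fold of 1.5, 86.6% at 2 and 97% at 4, with 8 false calls. The simulated noise was normal and independent between probe sets, and the changed probe sets were picked at random. These rates do not cover genes that vary together on the real arrays, such as the rod list. The array number limits the precision. Gene values are means of probe sets with 1 symbol. The 36 gene lists and the comparison were chosen with earlier results of these data known. Named are the study's probe sets and PCR genes, the 15 largest positive and 15 largest negative differences at the study's thresholds without overlap (fewer where fewer passed), the 15 smallest p-values, and, in each list, the first 2 members, the 4 largest differences and every probe set with p of 0.05 or less; the text gives a selection of these, and list members outside the rule are named as examples. Alternatives were the methods' t-test, fewer arrays, a replicate block, array weights, a robust prior, a filter on SD, array medians of 0, the rod list mean as a covariate, and leaving out each array. Python 3.11.15 with numpy 2.4.6, pandas 2.3.3 and matplotlib 3.10.9 was used for summaries and plots.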

Additional observations from a re-analysis of the deposited data

How the results depend on the processing

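Under 15 alternatives, limma and the methods' t-test gave 0 probe sets after adjustment for Dex against BSS at 1 week. The counts at the study's thresholds, 13 higher and 34 lower, were less steady. limma on the 6 arrays gave 312 higher, limma on the 9 arrays of day 7 gave 190 higher, array weights gave 71 higher and 99 lower, the rod list mean as a covariate 28 higher and 22 lower, and the methods' t-test 76 higher and 12 lower. Leaving out single arrays gave 12 to 120 higher and 20 to 122 lower; the extremes were 120 higher without BSS replicate 2 and 122 lower without Dex replicate 1. The test of 1 week against 1 month gave 0 to 1 probe sets when single arrays were left out, the 1 without BSS day 30 replicate 2, and array weights gave 1 for Dex against TAA. The cause was not tested. With the rod list mean as a covariate, differences turned negative for Nrl (-0.073), Tulp1 (-0.091), Fscn2 (-0.085), Rdh12 (-0.15), Dohh (-0.13), Dscaml1 (-0.17), Olfm3 (-0.030), Ahrr (-0.24) and the second Snap25 probe set (-0.81); Nrl, Tulp1, Fscn2 and Rdh12 are themselves in that mean, so that their values are not a separate check. The second Grik1 probe set (-0.01) turned to 0.079 with array weights, 0.03 and 0.01 without Dex replicates 1 and 3, and 0.11 without BSS replicate 2 (-0.11 to 0.11 over all single arrays left out), and 1 of 2 Arntl probe sets (0.09) to -0.0042 without BSS replicate 3 (-0.0042 to 0.20 over all). No other difference of the 72 probe sets turned. Deviations of arrays with the same replicate number correlated at -0.34, -0.17 and -0.03, so that these values show no pairing by number. With 3 arrays per group they cannot exclude one. The replicate block gave 14 higher and 29 lower. The list medians of lens and surface epithelium genes turned from -0.08 to 0.24 without Dex replicate 2 and from -0.13 to 0.81 without Dex replicate 1. The robust prior could not be trended, since the values hold no level, and was run untrended.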

Other observations

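Of the 34 probe sets lower after Dex at the study's thresholds, 8 carry the suffix of probe sets that can hybridize to several genes (23.5%, against 5.41% of all 45101 probe sets). Bcas2, a splicing factor, had values of 0.40, -0.98 and -2.09 on the Dex arrays, against 0.01, 0.17 and 0.29 on the BSS arrays. Slc25a5, which exchanges ATP across the mitochondrial membrane, had -0.03, -0.35 and -1.31 after Dex, against 0.12, -0.14 and 0.18 after BSS. Cnbp, a nucleic acid binding protein, had 0.07, -0.52 and -1.17 after Dex, against -0.03, 0.20 and 0.16 after BSS, and Eif2a, a translation factor, had 0.17, -0.35 and -1.04 after Dex, against 0.03, 0.20 and 0.45 after BSS. In all 4 the groups overlapped through Dex replicate 1. Most other probe sets of these genes differed less, by 0.07 for Cnbp, -0.16 and 0.09 for Bcas2, and -0.54 to 0.20 for Slc25a5. These genes were singled out after their values were seen, and a cause was not tested.

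Genes of myelin and Schwann cells had lower values after Dex in 5 of 6 members (median -0.22, and -0.07 without Dex replicate 2 or without BSS replicate 1), and the 5 measured erythroid genes all did (median -0.07, between -0.15 without BSS replicate 3 and -0.03 without BSS replicate 1), with groups apart on 0 of the myelin genes and on 1 of the erythroid genes, Hbb-b2, where Dex lay below (4.84% of all genes). The erythroid list mean was -0.11, -0.12 and 0.01 on the Dex arrays and 0.09, 0.06 and 0.21 on the BSS arrays. Cholesterol synthesis genes had a median of 0.04, which was -0.03 without Dex replicate 3, and on 2 of 16 the Dex arrays lay above the BSS arrays (4.4% of all genes).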
